A study of Homo sapiens with 35 samples.

Results

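The proteasome is the enzyme complex that degrades ubiquitin-tagged proteins, and 48 human protein-coding genes carry a symbol made of PSMA, PSMB, PSMC, PSMD, PSME, PSMF or PSMG and a number. All 48 were taken, of 19974 protein-coding genes on chromosomes 1 to 22 and X, by symbol alone. They were examined in a list of open chromatin peaks from human blood progenitors. ATAC-seq, which cuts accessible DNA with a transposase that leaves sequencing adapters, had been run on hematopoietic progenitor cells differentiated in culture from the widely used human embryonic stem cell line H1. The series asks what ectopic MYC, switched on with doxycycline, does to such cells.

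The labels describe 12 libraries of doxycycline-treated doxee17 cultures (batch 1), 11 of untreated doxee17 cultures (batch 1) and 12 of untreated h1 cultures (batch 2), sampled on 6 days from day 10 to day 20. All 35 share the H1 cell line label, and the labels state neither the promoter of the MYC transgene, nor how many clones doxee17 stands for, nor whether the h1 cultures carry the transgene. The peaks come as a pooled list that names no library, so no comparison could be made between doxycycline-treated and untreated cultures or between days, lines and batches, and the spread between replicates is unknown. What follows is a description of 308732 peaks, which had a median fold enrichment of 3.46 and a median width of 482 bp. Fold enrichment, or fold, is the authors' linear ratio of the reads stacked at a peak's summit to a genome-wide background. Intervals beside a fold are exact Poisson 95% intervals and cover counting error only. Depth per library is unknown, and a fold lowered by fewer cells with an open site cannot be told apart from one lowered by less opening in each cell.

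The barrel-shaped core of the proteasome is built of rings of alpha subunits (PSMA genes) around rings of beta subunits (PSMB genes), of which PSMB5, PSMB6 and PSMB7 hold the protein-cutting sites. A cap of ATPases (PSMC genes) and non-ATPases (PSMD genes) recognises, unfolds and feeds in the substrate, while PSME genes encode alternative activators, PSMF1 an inhibitor, and the PSMG genes with PSMD5, PSMD9 and PSMD10 assembly chaperones. Interferon-inducible PSMB8, PSMB9 and PSMB10 take the places of PSMB5, PSMB6 and PSMB7 in the immunoproteasome, which is abundant in blood cells and shapes the peptides presented to T cells. PSMB11 belongs to a form of the thymus cortex, and PSMA8 to a form of the testis.

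Promoter sequences of 7 genes show the range of starts behind the values. They are the immunoproteasome genes, the available constitutive counterpart (PSMB5), the tissue-restricted PSMA8 and PSMB11, and PSMD3. PSMD3 had the highest fold at its start, and PSMB10 and PSMB11 the lowest, with no summit within 1 kb. The PSMB10 start nevertheless lies under a 131-fold peak with its summit 1012 bp downstream. Each sequence runs from 250 bases before to 50 bases after a RefSeq start on GRCh38.p14, 5′ to 3′ on the gene's own strand. Capitals mark matches, on either strand, to any of 12 short motifs spelled out further on. They lie at chr6:32844630-32844929 (minus strand, PSMB8), chr6:32853942-32854241 (plus, PSMB9), chr16:67936801-67937100 (minus, PSMB10), chr14:23035171-23035470 (minus, PSMB5), chr18:26133619-26133918 (plus, PSMA8), chr14:23041962-23042261 (plus, PSMB11) and chr17:39980557-39980856 (plus, PSMD3).
PSMB8: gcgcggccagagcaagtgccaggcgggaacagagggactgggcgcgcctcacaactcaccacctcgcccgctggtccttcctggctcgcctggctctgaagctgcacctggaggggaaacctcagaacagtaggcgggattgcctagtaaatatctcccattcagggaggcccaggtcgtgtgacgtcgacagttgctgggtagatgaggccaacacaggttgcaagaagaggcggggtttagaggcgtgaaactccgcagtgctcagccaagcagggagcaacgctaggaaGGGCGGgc
PSMB9: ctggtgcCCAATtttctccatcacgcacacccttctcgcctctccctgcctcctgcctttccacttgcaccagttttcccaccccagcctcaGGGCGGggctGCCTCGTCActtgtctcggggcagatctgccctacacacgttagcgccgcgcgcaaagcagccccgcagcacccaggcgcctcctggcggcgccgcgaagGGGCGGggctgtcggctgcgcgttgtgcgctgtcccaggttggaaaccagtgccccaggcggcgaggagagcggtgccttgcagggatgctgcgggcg
PSMB10: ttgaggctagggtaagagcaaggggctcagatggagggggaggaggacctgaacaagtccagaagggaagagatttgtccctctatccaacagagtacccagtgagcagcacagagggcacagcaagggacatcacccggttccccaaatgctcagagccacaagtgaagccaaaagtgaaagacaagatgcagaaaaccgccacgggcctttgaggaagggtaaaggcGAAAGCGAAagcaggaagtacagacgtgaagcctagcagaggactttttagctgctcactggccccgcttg
PSMB5: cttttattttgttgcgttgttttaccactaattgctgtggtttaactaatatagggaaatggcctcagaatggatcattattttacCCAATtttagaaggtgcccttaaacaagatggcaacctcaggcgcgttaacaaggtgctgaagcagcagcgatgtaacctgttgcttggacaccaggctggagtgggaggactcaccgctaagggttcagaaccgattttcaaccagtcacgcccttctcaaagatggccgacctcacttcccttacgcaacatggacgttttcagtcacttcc
PSMA8: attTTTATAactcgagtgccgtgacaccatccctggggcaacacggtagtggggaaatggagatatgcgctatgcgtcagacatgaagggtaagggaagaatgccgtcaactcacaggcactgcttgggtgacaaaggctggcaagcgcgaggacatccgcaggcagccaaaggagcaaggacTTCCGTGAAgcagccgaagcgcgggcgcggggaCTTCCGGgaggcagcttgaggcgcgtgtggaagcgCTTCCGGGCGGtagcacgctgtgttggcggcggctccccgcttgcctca
PSMB11: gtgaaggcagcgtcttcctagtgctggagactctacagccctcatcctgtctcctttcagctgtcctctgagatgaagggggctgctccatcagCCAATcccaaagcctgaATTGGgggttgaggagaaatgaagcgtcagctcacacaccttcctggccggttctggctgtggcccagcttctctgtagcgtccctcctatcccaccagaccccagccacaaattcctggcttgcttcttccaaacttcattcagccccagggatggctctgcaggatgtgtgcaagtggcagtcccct
PSMD3: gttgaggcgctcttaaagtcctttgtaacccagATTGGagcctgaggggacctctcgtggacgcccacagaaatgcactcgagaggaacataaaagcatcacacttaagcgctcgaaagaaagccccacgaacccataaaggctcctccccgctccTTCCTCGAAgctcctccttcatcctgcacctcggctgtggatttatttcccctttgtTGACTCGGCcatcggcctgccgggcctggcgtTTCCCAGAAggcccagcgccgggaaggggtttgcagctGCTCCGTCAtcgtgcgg
The PSMB9 window held GC-rich SP matches 158 and 48 bases before the start, whereas the PSMB10 window held an interferon-type match 21 bases before its start and no SP match. In PSMA8, ETS matches lay 34 bases before and 1 base after the start. PSMD3 carried antioxidant-type matches on both sides of its start, 37 bases before and 33 bases after it. PSMB5 and PSMB11, neighbours on chromosome 14, held CCAAT boxes only.

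Proteasome genes lay at strongly open chromatin. A peak summit was found within 1 kb of a gene end in 46 of the 48 genes (95.8%), against 83.0% of all coding genes. The highest such fold, counted as 0 where there was no summit, had a median of 109 over the 48 genes (quartiles 71.7 and 166), against 43.5 over all coding genes (quartiles 3.64 and 112). A summit above 100-fold was present at an end of 27 of the 48 genes (56.25%), against 29.2% of all coding genes. Of the 48, 42 lay above the median of all coding genes and 22 above their upper quartile. Without the immunoproteasome and tissue-restricted genes, the remaining 43 had a median of 112. No such difference was tested, since genes are not replicates and neighbours share peaks.

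RefSeq gene extents can reach past the usual start, so the annotated starts of the promoter table were read as well, for the 42 members and 15812 coding genes it holds. At a start, 40 of the 42 members had a summit (95.2%), against 81.7% of all coding genes, and 28 exceeded 100-fold (66.7%), against 32.7%. The median fold at the start was 119 in the members and 56.2 in all coding genes. PSMA7, PSMB1, PSMB6, PSMB7, PSMD4 and PSMG3 have values at gene ends only.

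**Figure D1:**
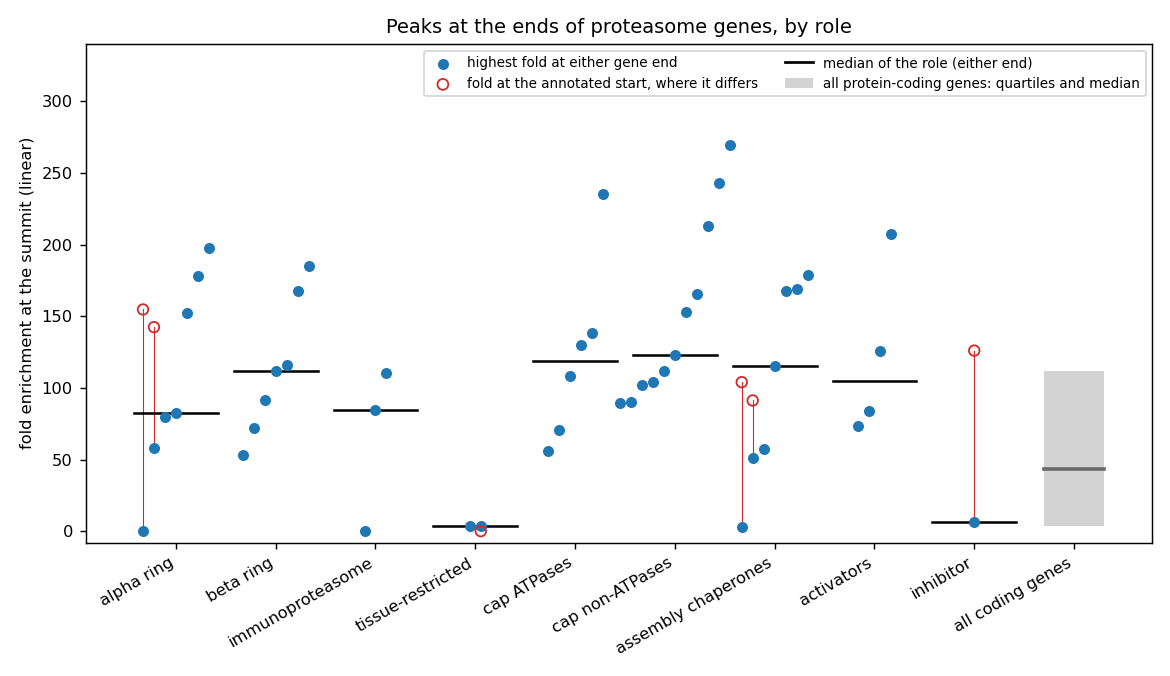
Highest fold enrichment (linear axis) of a summit within 1 kb of either end of each proteasome gene, by role (filled points), with the fold at the annotated start where it differs (open points) and the median of each role (black lines). The grey bar spans the quartiles of all protein-coding genes (3.64 to 112) with their median of 43.5. Only the tissue-restricted genes and the inhibitor have a role median below that of all coding genes, and the inhibitor's start lies at 126.

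The 7 alpha ring genes, whose products form the outer rings and the gate of the core, had folds at their ends of 0 to 198 with a median of 82.6, and of 82.6 to 198 at the 6 starts, with a median of 154. PSMA5 had the highest peak of the ring, 198-fold (195 to 201) at chr1:109425318-109427393. PSMA2 followed with 178-fold (175 to 181) at chr7:42931617-42933605, a peak at the end of a mitochondrial ribosomal protein gene, MRPL32, as well. PSMA3 stood at 152, PSMA4 at 82.6 and PSMA7 at 79.8, a value also at an end of SS18L1. The ring thus spans both sides of 100-fold, with PSMA2, PSMA3 and PSMA5 above it at their ends.

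The low alpha ring values at gene ends belonged to genes whose annotated extent begins far from the start in the promoter table. PSMA6 had no summit at either end but 155-fold (152 to 157) at its start, at chr14:35291428-35293360. PSMA1 had 57.8-fold at an end, where the peak also lay at an end of PDE3B, and 142-fold (140.0 to 145) at its start, at chr11:14519358-14521242. By start, 5 of the 6 alpha ring genes exceeded 100-fold, PSMA4 being the exception, against 32.7% of all coding genes.

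All 7 beta ring genes had a summit at an end, from 53.4 to 185-fold with a median of 112. PSMB3, a non-catalytic subunit, had the highest fold (185, interval 182 to 188) under the widest start peak of any proteasome gene, 7134 bp at chr17:38746398-38753531. PSMB1, also non-catalytic, had 167-fold in a peak at an end of TBP too, the gene of the TATA-binding protein. The summit lay nearer to TBP, and PSMB1 had 0 with 0.5 kb windows. That peak therefore cannot be given to PSMB1 alone. Of the catalytic subunits, PSMB7 (trypsin-like) had 116-fold (114 to 118), PSMB5 (chymotrypsin-like) 112-fold (109.97 to 114) and PSMB6 (caspase-like) 91.5-fold (89.6 to 93.4). These 3 lay close together, and the intervals of PSMB7 and PSMB5 overlapped. PSMB2 and PSMB4 were lowest, with 72.0 and 53.4-fold.

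PSMB8 and PSMB9 had start peaks of the same order as the gene-end peaks of PSMB5 and PSMB6, which they replace. PSMB10 lay under a strong peak with its summit inside the gene. PSMB8 had 84.2-fold (82.4 to 86.1) at chr6:32843427-32845973, with the summit 17 bp downstream of a start. PSMB9 had 111-fold (109 to 113) at chr6:32852540-32855013, with the summit 221 bp upstream. TAP1, which encodes a transporter that carries peptides to MHC class I molecules, lies between these genes: the PSMB9 peak covered its start, 488 bp away on the opposite strand, and the PSMB8 summit lay within 1 kb of its other end. PSMB10 had no summit within 1 kb of an end or a start. It lay under a peak of 131-fold (129 to 133) at chr16:67933724-67937482, which was 3759 bp wide, covered 86.5% of the gene and its 1 kb flanks and had its summit 1012 bp downstream of the start, just outside the window. Read by that covering peak, PSMB10 stood above both other immunoproteasome genes and above PSMB7, PSMB5 and PSMB6.

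Neighbouring peaks at these loci varied in strength. Within the plotted stretch around PSMB9 there were 4 peaks: 139.5-fold at TAP2, the partner of TAP1, with its summit 15473 bp upstream of PSMB9, then those of PSMB8 and PSMB9, and a 2.67-fold peak 7143 bp downstream. Around PSMB10, peaks of 37.2-fold (ends of LCAT and SLC12A4), 25.3-fold and 25.7-fold (end of CTRL) lay 7330 bp and 5462 bp upstream and 8175 bp downstream of the start. Between PSMB5 and PSMB11 no peak was called apart from those at the genes themselves.

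**Figure D2:**
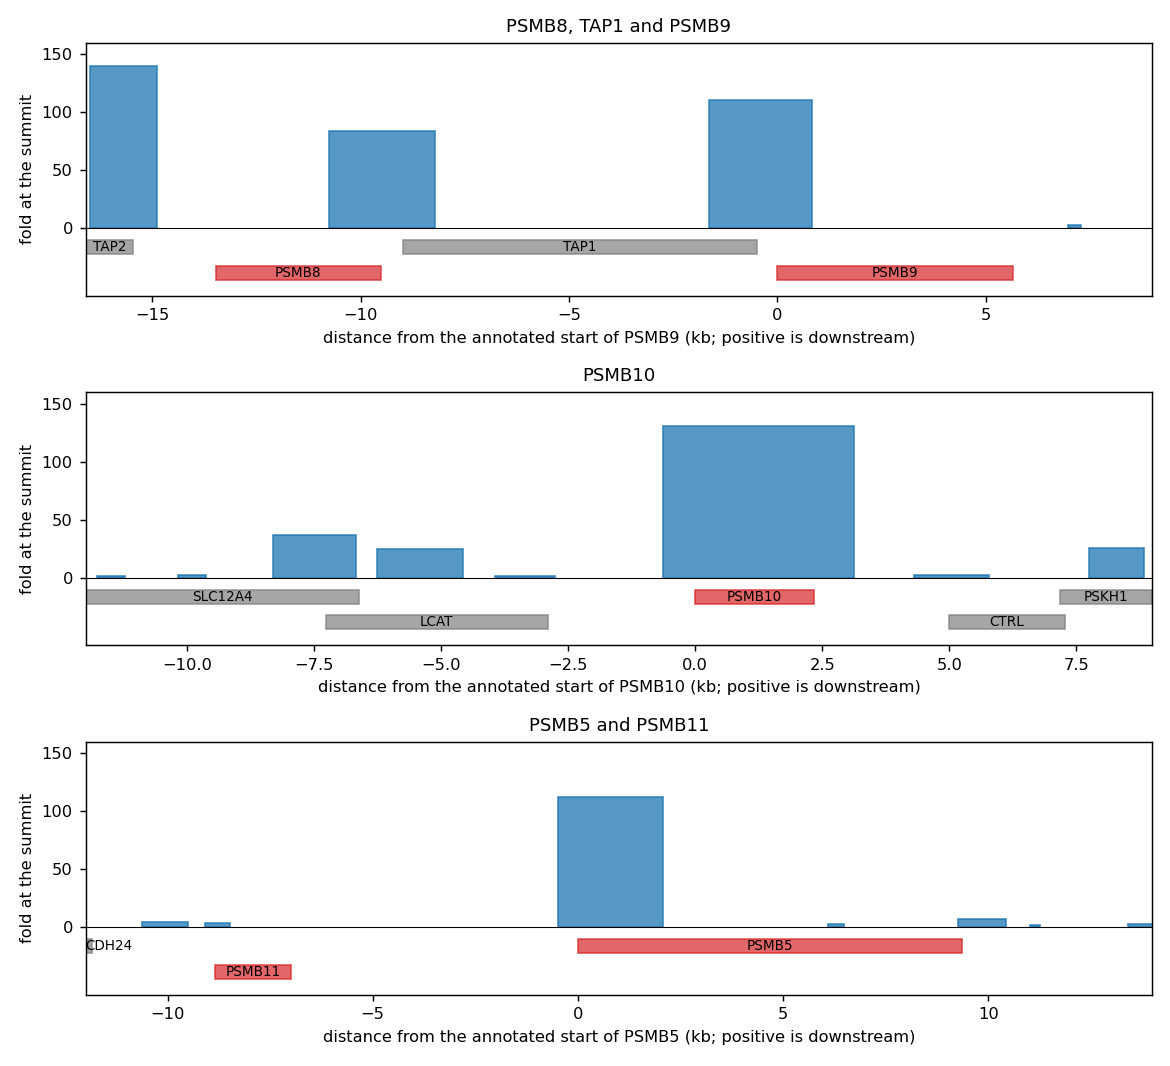
Peaks (blue boxes, height is fold at the summit on a linear axis, width is the peak's extent) and coding genes (red for proteasome genes, grey for others) around PSMB9, PSMB10 and PSMB5, by distance in kb from the start of the named gene in its own direction. PSMB10 is covered by a 131-fold peak that extends through the gene, PSMB8 and PSMB9 share their flanks with TAP1, and PSMB11 has no peak above 5-fold while its neighbour PSMB5 has 112.

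The tissue-restricted genes stood far below the rest. PSMA8, the testis counterpart of PSMA7, had a single peak over its 59.5 kb, of 3.66-fold (3.29 to 4.07) and 437 bp at chr18:26133670-26134106, 49 bp upstream of its start, and 0.71% of the gene and flanks lay in peaks. PSMB11, the thymic counterpart of PSMB5, had no summit at its start. Its highest fold at an end was 3.76 (3.38 to 4.17) at chr14:23043687-23044320, 1741 bp downstream of the start. PSMB5, whose start lies at 112-fold, is its neighbour. PSMA8 and PSMB11 were at the 25.1 and 25.3 percentiles of all coding genes.

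Among the 6 cap ATPases, which form the ring that unfolds substrates, folds ran from 56.0 to 235 with a median of 119. PSMC4 had 235-fold (232 to 238) at chr19:39969624-39971827, its only peak. PSMC5 had 138, beside FTSJ3 on the opposite strand 58 bp away, PSMC3 129.7, PSMC6 108 and PSMC1 70.9. PSMC2 had the lowest value, 56.0, in a peak at an end of PMPCB as well. PSMC4 thus stood apart from the other ATPases, the next of which was PSMC5.

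The 11 cap non-ATPases had the highest role median at gene ends, 123, and none was below 89.8. PSMD3, a scaffold subunit of the lid, had the highest peak of all proteasome genes, 269.8-fold (266 to 273) at chr17:39979216-39982169, at the 98.4 percentile of all coding genes. PSMD8, another lid subunit, had 243 (239.7 to 246) and PSMD2, a large subunit of the base, 213 (209.8 to 216). PSMD1, the other large base subunit, had 165, PSMD11 153, PSMD14, the deubiquitinating enzyme of the lid, 123, PSMD4, a ubiquitin receptor, 112, PSMD6 104 and PSMD12 102. PSMD7, the partner of PSMD14, had 90.5 and PSMD13 89.8, in a peak shared with SIRT3, whose start lies 45 bp away in the other direction. The PSMD7 and PSMD13 intervals (88.6 to 92.4 and 87.9 to 91.7) overlapped, so their order is not resolved by the counts.

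Whether cap or core stood higher depended on where the peak was read. At gene ends, the 17 cap genes had a median of 123 and the 14 core genes of 102. At annotated starts the order turned, with 126 for 16 cap genes and 147 for 10 core genes, and 4 core genes have no start in the table. With gene ends used for those without a start, a reading added after the data were seen, the medians were 123 for the 17 cap genes and 129 for the 14 core genes. Above 100-fold at an end lay 13 of 17 cap genes and 7 of 14 core genes, and at a start 12 of 16 and 7 of 10. Of all coding genes, 29.2% exceeded 100-fold at an end and 32.7% at a start.

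Assembly chaperones ranged from 2.87 to 179-fold at gene ends (median 115) and from 91.2 to 179-fold at the 6 starts (median 141). PSMG1, of the pair that starts the alpha ring, had 179 (176 to 182), in a peak at an end of BRWD1 too. PSMD9 and PSMD5, which act on the cap's base, had 169 and 168, and their intervals overlapped. PSMD10, also called gankyrin, had 115 on the X chromosome, beside ATG4A 236 bp away. PSMG3 had 57.6. PSMG2 had 51.4 at an end and 91.2 at the higher of its annotated starts, and PSMG4 2.87 at an end and 104 (102 to 106) at its start, at chr6:3258406-3260197.

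The activator genes had 208, 126, 83.5 and 73.7-fold. PSME2 and PSME1, whose products form the interferon-inducible activator ring, were the higher pair, and PSME4 and PSME3, which encode nuclear activators, the lower. The PSME2 summit (207.5-fold, interval 205 to 210.4) lay 741 bp upstream of the PSME2 start, the farthest among the 40 starts with a summit, and RNF31 starts 265 bp away on the other strand. This peak therefore cannot be given to PSME2 alone. The PSME1 summit lay 95 bp upstream of its start. PSMF1, the inhibitor, had 6.68-fold at an end and 126 (124 to 128) at its start, at chr20:1118027-1119649.

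Open chromatin was concentrated at the start of the gene. In the 41 members with a start and a distinct far end, the median was 123-fold at the start and 1.51-fold at the far end, and the start was higher in 40, the exception being PSMB10 with 0 at both. Summits at the far end were present in 21 of 41 (51.2%), against 35.0% of 14819 coding genes. The share was 50.0% in 60 cytosolic ribosomal, 28.6% in 63 mitochondrial ribosomal and 37.0% in 27 aminoacyl tRNA synthetase genes. None of the 41 reached 100-fold at the far end, which was rare over all coding genes too (205 of the 14819). Over all coding genes the median was 61.6 at the start and 0 at the far end, with the start higher in 11900 of the 14819. The higher far ends were PSMA5 (86.4, an end of SORT1), PSMD9 (74.8, an end of CFAP251), PSMD11 (22.4) and PSME3 (12.3).

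**Figure D3:**
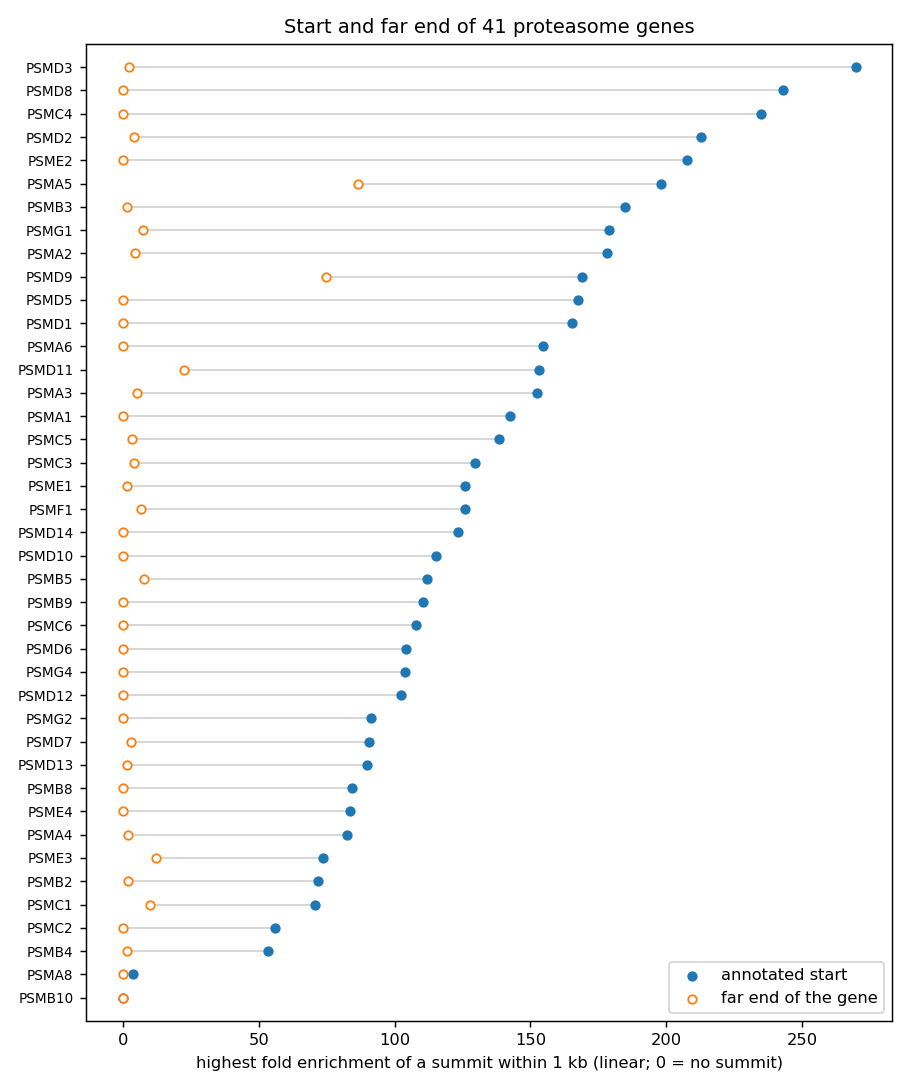
Highest fold enrichment (linear axis) of a summit within 1 kb of the annotated start (filled) and of the far end (open) of 41 proteasome genes, ordered by the start. Far ends sit at or below 22.4 except in PSMA5 and PSMD9, and PSMB10 is at 0 for both because its summit lies 1012 bp inside the gene.

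Summits at starts lay mostly upstream. Of the 40 members with a summit at a start, 29 had it upstream (72.5%), against 67.8% of all coding genes with a start summit. The median position was 96 bp upstream in members and 69 bp upstream in all. Peak widths there ran from 437 bp in PSMA8 to 7134 bp in PSMB3, with a median of 1966.5 bp, against 2021 bp for the start peaks of all coding genes. PSMG4 (6 bp upstream) and PSMD12 (11 bp downstream) had summits almost on the start.

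A start on the opposite strand within 1 kb upstream, so that both genes share a promoter region, was present in 9 of the 42 members with a start (21.4%), against 12.3% of all coding genes. These pairs were PSMA2 with MRPL32 (202 bp apart), PSMB9 with TAP1 (488), PSMC5 with FTSJ3 (58), PSMD13 with SIRT3 (45), PSMD9 with HPD (179), PSMD10 with ATG4A (236), PSMG2 with CEP76 (265), PSME2 with RNF31 (265) and PSME4 with ACYP2 (120). Median start folds were 115 in the 9 paired members and 123 in the 33 others. Over all coding genes, paired starts had a median of 125 and the others 41.8. Among members, paired and other starts thus lay at like levels. The summit that gave the end value lay within 1 kb of an end of another coding gene in 13 of the 46 members with such a summit (28.3%), against 22.6% of all coding genes with one.

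Most peaks over proteasome genes lay away from the annotated starts and were weak. The genes with 1 kb on each side held 249 peaks: 41 with a summit at a start (median 123-fold), 38 at a gene end that is no annotated start (4.39-fold, up to 167, with the main peaks of the 6 genes without a promoter entry among them), 160 inside the gene (2.87-fold and 442.5 bp wide, up to 131-fold) and 10 with a summit outside the flanks (4.79-fold, up to 216). Members held a median of 3.5 peaks each (1 to 28) and all coding genes 5 (up to 182), while the bases in peaks had medians of 19.6% and 14.5%. Members were shorter, 13.6 kb against 24.2 kb at the median. Within length classes the median counts were 2 against 1 peaks under 5 kb (9 members and 3160 genes), 3 against 3 from 5 to 20 kb (21 and 5823), 4 against 6 from 20 to 60 kb (12 and 5620) and 17 against 17 above 60 kb (6 and 5371). The shares of bases in peaks, in the same order of classes, were 45.7% against 34.2%, 22.02% against 24.1%, 11.6% against 13.6% and 10.2% against 7.99%.

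Genes with many peaks were the long ones. PSMA1 (139 kb) held 28, PSMB7 (62.0 kb) 19, PSMD1 (116 kb) and PSME4 (107 kb) 17 each and PSMD14 (103 kb) 15. All PSMA1 peaks except its start peak lay 9.12 kb or more upstream of the annotated start, inside the longer gene extent. The PSMA1 count and length thus depend on that extent, which reaches an end of PDE3B. PSMB7 differed in that 34.03% of it lay in peaks, the highest share among the 6 members over 60 kb. The strongest summits inside genes, after PSMB10, were those of PSMF1 (48.9-fold, 12.4 kb downstream of its start), PSMA6 (44.2-fold, 6.70 kb upstream of its start, inside the longer gene extent), PSMA1 (37.6-fold, 58.3 kb upstream), PSMG2 (32.3-fold), PSMB7 (28.7-fold) and PSMC1 (24.8-fold, 16.1 kb downstream).

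**Figure D4:**
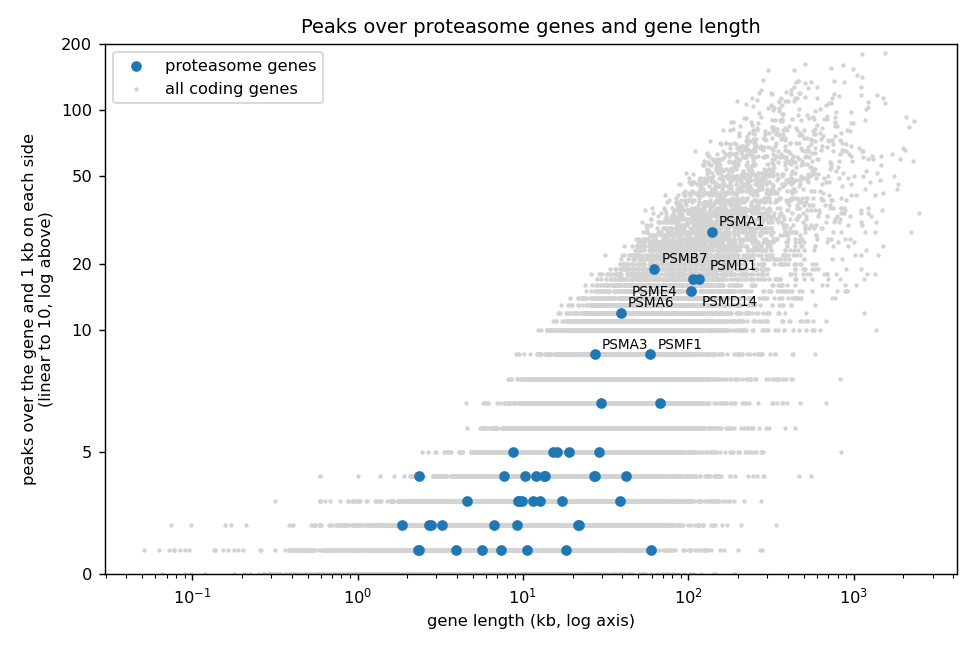
Number of peaks over each gene and 1 kb on each side (linear to 10, logarithmic above) against gene length in kb (logarithmic axis), for proteasome genes (blue) and all coding genes (grey). Proteasome genes lie within the cloud of coding genes of like length, from 1 peak to the 28 of PSMA1, most of them upstream of its annotated start.

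Distal peaks, with a summit over 1 kb from every coding gene end, numbered 14.7 per 100 kb at the median within 50 kb of proteasome gene ends (4.12 to 33.3), against 14.03 around all coding genes. PSMB7 (33.3), PSMA6 (31.7) and PSMD6 (29.97) had the densest surroundings and PSMC6 (4.12) and PSMD10 (4.66) the sparsest. The middle of the range thus lay close to that of all coding genes.

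Base composition was compared in the 300-base promoters of the table, of which members had 51 (42 genes) and all coding genes 22132. Median GC content was 62.0% in members and 62.3% in all. The ratio of observed to expected CpG, high in unmethylated CpG islands, was 0.77 in members and 0.74 in all, and 43 of 51 member promoters (84.3%) had at least 0.6, against 62.2% of all promoters. Among promoters at or above 0.6, members had a median of 115-fold and all promoters 87.7-fold, and 67.4% of member promoters exceeded 100-fold against 43.6%. PSMA8 was the only member promoter with such a ratio (0.92) under 5-fold, where 11.4% of such promoters of all genes lay. The 8 member promoters below 0.6 had a median of 28.0-fold, against 2.05-fold for all such promoters. None of these 8 member promoters lay near 28.0, as each had 0 or at least 56.0-fold. At 0 were PSMB11 (0.17), PSMB10 (0.33) and a start each of PSMD2 and PSMF1, whose other starts had 213 and 126. The PSMB10 start lies under a 131-fold peak with its summit outside the window. PSMD8 (0.54) had 243-fold at its start and PSME2 (0.50) 207.5-fold. Across promoters the Spearman correlation of this ratio with the fold was 0.11 in members and 0.58 in all, as a description, since neighbouring starts of a gene share a peak.

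Promoters were searched on both strands for 12 motifs: the antioxidant response element TGACNNNGC, bound by NFE2L1, which raises proteasome gene transcription when the proteasome is inhibited, and by NFE2L2; the E-box CACGTG, bound by MYC and MAX among others; CCAAT (NFY); CCGGAAG (ETS); GCGCANGCG (NRF1); AAGATGGCG (YY1); GGGCGG (SP); TGACGTCA (CRE); TATAAA; the interferon-type GAAANNGAA; TTCNNNGAA (STAT); and GGGANTTTC (NF-kappaB). Matches of different motifs shared bases in few member promoters, ETS with SP in 3 and NFY with SP in 1. A match is a string of letters in the reference and not a bound site.

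The antioxidant-type letters were present in 15 of 51 member promoters (29.4%), against 13.8% of all promoters. They belonged to 15 genes (PSMA4, PSMB3, PSMB9, PSMC4, PSMC5, PSMD1, PSMD3, PSMD5, PSMD9, PSMD12, PSME1, PSME2, PSME4, PSMG1 and PSMG2), whose matching starts ran from 51.4-fold in PSMG2 to 269.8 in PSMD3. ETS letters were present in 15 (29.4%), against 12.8%. They also belonged to 15 genes (PSMA6, PSMA8, PSMC1, PSMC2, PSMC6, PSMD6, PSMD7, PSMD8, PSMD9, PSMD12, PSMD13, PSMD14, PSME4, PSMF1 and PSMG4), from 3.66-fold in PSMA8 to 243 in PSMD8. PSMD9, PSMD12 and PSME4 held both. Over all promoters, those with ETS letters had a median of 105-fold and those without 25.5-fold. Such a contrast was not particular to ETS. It was 78.9 against 4.77 for SP and 57.0 against 36.5 for antioxidant-type letters. NRF1, YY1, CCAAT, CRE and E-box matches also went with a higher median, and TATAAA, interferon-type, STAT and NF-kappaB matches with a lower one. Whether the antioxidant-type or the ETS share differs among promoters of like fold or CpG ratio was not tested. SP letters were present in 35 (68.6%, against 56.3%) and CCAAT in 20 (39.2%, against 34.6%). NRF1 letters were found in 7 promoters of 5 genes (13.7%, against 9.66%), YY1 letters in 3 (5.88%, against 2.42%), TATAAA in 5 (9.80%, against 9.46%) and STAT letters in 8 (15.7%, against 6.79%). CRE and NF-kappaB letters were in none of the 51, against 2.26% and 1.18% of all promoters.

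The MYC-type E-box was in 3 member promoters (5.88%), against 8.34% of all promoters. These were PSMB3 (238 bases before the start, 185-fold), PSMD9 (131 bases before, 169-fold) and PSME3 (42 bases before, 73.7-fold). PSME3 thus lay below the median member start of 119, and the others above it.

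Interferon-type letters were present in 8 member promoters (15.7%), against 7.09% of all. Of the 5 genes known as interferon-inducible, 4 had them: PSMB8 (3 bases before the other of its annotated starts, not the printed window), PSMB10 (21 bases before), PSME1 (6 bases after) and PSME2 (28 bases before), but not PSMB9. Of the 37 other members with a promoter, 4 had them (PSMA4, PSMB4, PSMC2 and PSMG4). The PSMB10 match is the capital run in its sequence above.

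**Figure D5:**
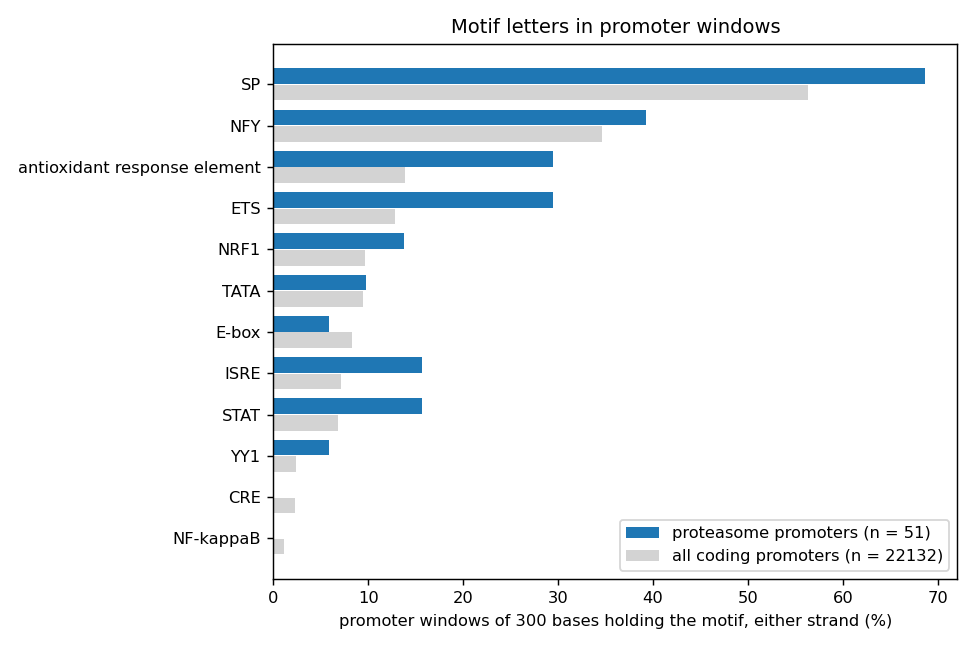
Share of 300-base promoter windows (%, bars from 0) that hold each motif on either strand, for 51 proteasome promoters (blue) and 22132 promoters of all coding genes (grey). Antioxidant-type and ETS letters stand at 29.4% each in proteasome promoters, against 13.8% and 12.8%. The E-box stands at 5.88% (3 of 51 promoters), against 8.34%.

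Genes that work with the proteasome were read the same way, by the fold at a gene end. All coding genes had a median of 43.5 there, and 29.2% of them exceeded 100-fold. The ubiquitin genes RPS27A and UBB had 134 and 97.5. The ubiquitin-activating enzymes UBA6 and UBA1 had 161 and 75.2. The 10 proteasome-bound and assembly factors had a median of 146, and 7 of 10 exceeded 100-fold, among them the deubiquitinase UCHL5 (201), PAAF1 (200.1), the ubiquitin receptor ADRM1 (192) and AKIRIN2, which carries proteasomes into the nucleus (191). POMP, the maturation factor of the core, had 60.8. The 7 shuttle factors had a median of 90.5, from RAD23B (233) to DDI1 (0). Among the 7 regulators of proteasome gene transcription (median 84.4), NFE2L1 had 254 and VCP, which helps to release NFE2L1 from the membrane, 205. NFE2L2 had 0 at its gene ends but 136 at a start. The 10 genes of antigen processing had a median of 108, from ERAP2 (11.2) to ERAP1 (189), and 6 of 10 exceeded 100-fold, TAP1 (111) through the peak it shares with PSMB9. The near namesakes PSMC3IP and PSIP1, which encode no proteasome subunit, had 132 and 106.

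Other sets of genes that most cells use gave values near those of the proteasome genes, whose median at gene ends was 109 with 56.25% above 100-fold. The 83 genes named RPL or RPS and a number, for cytosolic ribosomal proteins and their paralogs, had a median of 119 and 71.1% above 100-fold. The 77 mitochondrial ribosomal protein genes had 112 and 55.8%, and MRPL32 among them shares its peak with PSMA2. The aminoacyl tRNA synthetase genes were taken by symbol (a letter, ARS and a number), which does not cover the whole family. These 34 genes had 128 and 76.5%. At gene ends the proteasome median was below those of all 3 sets. At annotated starts the order differed, with medians of 119.2 for proteasome, 111.2 for cytosolic ribosomal, 118.97 for mitochondrial ribosomal and 132 for synthetase genes. Over the gene and its flanks, bases in peaks made up 19.6% in proteasome genes, 69.1% in cytosolic ribosomal, 21.8% in mitochondrial ribosomal and 15.8% in synthetase genes, with median lengths of 13.6, 5.04, 8.62 and 33.4 kb.

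Marker genes were read as a check of the label. Of 7 blood progenitor markers, SPI1 (109), RUNX1 (80.9), MYB (37.9), PTPRC (30.9) and CD34 (14.8) had a summit at an end. GATA2 had none at an end but 54.9-fold at an annotated start, and TAL1 lay under a 105-fold peak with its summit outside these windows. Of 5 pluripotency markers, SOX2 had 17.6, NANOG 2.42 and POU5F1 1.93, while LIN28A (under a 37.7-fold peak) and DPPA2 had no summit. Hepatocyte markers reached 2.5 (APOA2; ALB and AHSG 0) and fibroblast markers 10.1 (LUM; COL3A1 and DCN 0).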

How the data were processed

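ATAC-seq libraries of H1-derived progenitors (50000 nuclei, 45 minutes of transposition, paired reads of 75 nucleotides, per the labels' protocols) had been reduced to a pooled peak list. The tools were Picard 2.2.4, Bowtie2 2.2.8 and Trim Galore 0.6.5 with the builds hg38 and GRCh38.p13, per the submitters' processing notes, and the deposited peak names carry MACS 2.1.0 and GENCODE 36. Which libraries were pooled and how duplicates and transposase offsets were treated is not given in the sources used here.

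For each peak the authors deposited a score, a fold (linear ratio) at the summit, the −log10 p-value and the −log10 q-value. The deposited folds fit (pileup + 1) / (background + 1) with a background of 93.5 across the genome, under which 100% of pileups below 3-fold were whole within 0.1. Intervals came from these pileups. Fold was analysed, and significance served only to select peaks in a varied setting. The constant background does not correct for copy number or mappability. As the list names no library, the planned comparison of treatments was not run, batch and replicates could not be examined, and no test was made. The labels hold 35 libraries and the design text names 44.

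Genes, starts and promoter sequences came from RefSeq tables of GRCh38.p14 on chromosomes 1 to 22 and X, which patch releases do not shift. Exons were not told apart, and strand was known for genes with a promoter entry. Peaks were assigned by summits within 1 kb of either gene end or of an annotated start, by overlap with the gene and 1 kb flanks, or as distal within 50 kb. Far ends were read at least 2 kb from a start. Windows, overlap rules, the more significant 50% of peaks, motif strand and length were varied. Simulated peaks were placed singly at 400 long coding genes far from other gene ends, and the end fold and the peak count were recovered for 400 genes. That check does not cover summits shared by neighbouring genes. In each role the highest 3 and lowest 2 members, genes without a summit, all genes of the small roles, those sharing a summit with another gene and the widest or most peak-rich were to be named, and the remaining members are given besides. Some genes of the ubiquitin list are not reported here. Members, roles and lists were chosen with earlier results of these data known. Python 3.11.15, numpy 2.4.6, pandas 2.3.3, scipy 1.17.1 and matplotlib 3.10.9 were used.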

Additional observations from a re-analysis of the deposited data

How the results depend on the processing

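No paired analysis was possible because the peak list names no library. Fold is from pooled libraries, so depth limits the weak peaks most. The median end fold of the 48 genes, 109 as reported, was 96.9 with 0.5 kb windows and also when a summit counted only for the nearest gene, 113.6 with 2.5 kb, 112 with any overlap, 119 at annotated starts only and 113.6 at starts with gene ends where none is listed (a setting added after the data were seen). The median of all coding genes, 43.5 as reported, was 27.9 with 0.5 kb, 24.8 by nearest gene, 55.3 with 2.5 kb, 56.1 with overlap, 56.2 at starts and 47.3 at starts with ends, below the 48 genes in each. The role medians that moved were as follows. Alpha ring genes (82.6) stood at 154 at starts, 79.8 by nearest gene and 152 at starts with ends. Beta ring genes (112) stood at 91.5 with 0.5 kb and by nearest gene and at 92.0 at starts. Immunoproteasome genes (84.2) stood at 131 with 2.5 kb and 111 with overlap. With 2.5 kb, PSMB8 took the 139.5-fold peak at an end of TAP2. Tissue-restricted genes (3.71) stood at 4.13 with 2.5 kb or overlap and 1.83 at starts, with or without ends, and no value was left without PSMA8 and PSMB11. Cap ATPases (119) stood at 134 with 2.5 kb or overlap, cap non-ATPases (123) at 138 at starts, and assembly chaperones (115) at 141 at starts and 112.6 without the X chromosome. Activators (105) stood at 78.6 with 0.5 kb and 36.8 by nearest gene. The inhibitor (6.68) stood at 0 with 0.5 kb and 126 at starts, with or without ends. With the more significant 50% of peaks, the median number of peaks per gene (3.5) became 2. Bases in peaks (19.6%) became 16.4% and distal density (14.7) 6.55 in that setting. Without flanks, bases in peaks became 14.5%. Among motif counts in 51 promoters, CCAAT (20) became 12, YY1 (3) 0, TATAAA (5) 1 and interferon-type letters (8) 4 in the last 150 bases before the start. On the gene's strand alone ETS (15) became 8, SP (35) 18 and TATAAA 3. The share of members turned from above to below that of all promoters for CCAAT in the last 150 bases (23.5% against 24.8%), for SP on the gene's strand (35.3% against 39.4%), for YY1 in the last 150 bases (0 against 0.470%) and for TATAAA in both settings (1.96% against 6.03%, and 5.88% against 6.47%). The other counts, including those of genes with a summit (40 to 48) and above 100-fold (24 to 31), stayed within 1.5 times. At annotated starts only, these counts are out of 42 genes rather than 48. Among single genes, PSMB1, PSMD6, PSME2, PSMG2 and PSMF1 fell to 0 with 0.5 kb. By nearest gene PSMA1, PSMB1, PSMC2, PSME2 and PSME4 stood at 0, PSMA2 at 4.27 and PSMD13 at 1.59. With 2.5 kb or overlap, PSMC6 stood at 193 in a peak at an end of STYX and PSME2 at 216 in a peak at an end of EMC9.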
